A study of Homo sapiens with 6 samples.

Results

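NUBP1 and 8 other genes of cytosolic iron-sulfur cluster assembly were followed in the human chondrocyte line TC28a2 (immortalised) after transfection of either a control vector or one that overexpressed FAP (fibroblast activation protein). The set held 9 of the 28395 genes in the count table, and all 9 had enough reads to be tested. NUBP1 was chosen by its lower level with the FAP vector in the same comparison that is described here, and NUBP2, CIAPIN1, NDOR1, CIAO3, CIAO1, CIAO2A, CIAO2B and MMS19 were added because they act in the same pathway. The difference between vectors in these 9 genes is therefore given as a description, with no p-value. Each vector had 3 DRUG-seq libraries, a low-cost multiplexed RNA sequencing format, from RNA collected 48 hours after transfection. Neither a promoter for the vector nor the share of transfected cells is given in the sources used here.

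Iron-sulfur clusters are small cofactors of iron and sulfide held by cysteines of a protein. A mitochondrial machinery starts their synthesis, and a cytosolic machinery then builds clusters for proteins of the cytosol and nucleus, among them DNA polymerases, DNA helicases, the ribosome recycling ATPase ABCE1 and the iron-sensing aconitase ACO1. In the cytosol the P-loop ATPases NUBP1 and NUBP2 form a scaffold on which a cluster is put together, with electrons from the flavoprotein NDOR1 by way of CIAPIN1. CIAO3 links the scaffold to a targeting complex of CIAO1, CIAO2B and MMS19, which hands clusters to the recipient proteins, and CIAO2A works with CIAO1 on the iron regulatory proteins.

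Library totals ran from 5736056 to 13839743 counts. FAP RNA was at 0 to 11 counts in the control libraries and at 1396 to 4733 in the FAP libraries, so the target gene went the way of the labels. FAP replicate 3 stood apart, with a chi-square per degree of freedom of 16.2 and 15.5 against FAP replicates 1 and 2, whereas other pairs within a group lay between 5.21 and 6.78. Of 11 chondrocyte markers, SOX9 alone was tested, while ACAN and COL2A1 had at most 15 and 4 counts in any library. SOX9 averaged 28.8 CPM with the control vector and 37.4 with the FAP vector and made up most of the summed markers (26.5 to 35.8 CPM in controls, 34.5 to 44.7 CPM with FAP). The other 10 markers, at no more than 21 counts each, summed to 2.85 to 4.04 CPM and 2.12 to 3.11 CPM, and 7 of them had the lower mean with FAP. The 7 fibroblast markers summed to 540 to 796 CPM in controls and 705 to 857 CPM with FAP. Epithelial markers, of which KRT8 and KRT18 were tested, summed to 1313 to 1507 CPM and 1408 to 1540 CPM. Immune markers summed to at most 18.3 CPM and endothelial markers to at most 1.93 CPM in any library. Levels are TMM-scaled CPM (counts relative to library size), as mean ± SD with n = 3 per group. Since the labels do not call the replicates separate cultures, each p-value is set against a spread between libraries that may be only technical. In bulk RNA, a lower level in every cell and a loss in some of the cells cannot be told apart.

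The 250 bases upstream of the start of 2 genes are shown, since NUBP1 had the lower RNA level and CIAO2B was the 1 other gene whose libraries did not overlap between vectors. They are RefSeq sequences of GRCh38.p14, read 5′ to 3′ on the gene's own strand. NUBP1 lies on the plus strand (chr16:10743592-10743841, the first of 2 listed starts) and CIAO2B on the minus strand (chr16:66934403-66934652). Capitals mark matches to the motifs searched.
NUBP1: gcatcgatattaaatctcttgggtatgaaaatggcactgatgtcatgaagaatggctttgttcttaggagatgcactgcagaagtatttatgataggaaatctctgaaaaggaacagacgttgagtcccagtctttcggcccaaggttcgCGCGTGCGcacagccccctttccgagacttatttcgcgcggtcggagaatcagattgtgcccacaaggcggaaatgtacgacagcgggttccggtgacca
CIAO2B: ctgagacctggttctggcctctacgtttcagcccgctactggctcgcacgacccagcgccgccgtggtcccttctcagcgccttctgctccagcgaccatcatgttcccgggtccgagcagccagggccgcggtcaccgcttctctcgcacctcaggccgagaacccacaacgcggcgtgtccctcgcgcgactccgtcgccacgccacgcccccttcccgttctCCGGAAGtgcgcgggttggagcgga

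Motifs were searched on both strands, in windows of equal length upstream of 27305 genes. NUBP1 matched the NRF1 core alone (CGCNTGCG), at position -100 from the start. This core, added to the search after the NUBP1 sequence had been seen, occurred in 9.17% of the windows and also upstream of CIAO3. CIAO2B matched the ETS core alone (CCGGAAG), at position -25, which 8.82% of the windows held and which was also found for CIAO1 and NDOR1. A GC box (GGGCGG), present in 42.3% of windows, was found in 5 of the 8 members with an entry (CIAO1, CIAO3, MMS19, CIAPIN1 and NDOR1) and in neither sequence above. An E-box (CACGTG) occurred in 6.49% of windows and in 0 of the 8 members. The sequence of the CCAAT box occurred in 33% of windows and in 0 of the 8. A CRE (TGACGTCA) occurred in 1.77% of windows and likewise in 0 of the 8. The GC content was 49.2% upstream of NUBP1 and 68.8% upstream of CIAO2B, with a median of 58% over all regions. NUBP1 had the lowest GC content of the 8, the others lying between 53.6% and 77.2%. NUBP2 had no entry.

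NUBP1 RNA in FAP libraries was less than the level in any control. NUBP1 (Entrez 4682; GRCh38 chromosome 16, 10743842 to 10769351) was at 54.4, 39.8 and 42.4 CPM in control replicates 1, 2 and 3, and at 24.3, 24.4 and 16.6 CPM in FAP replicates 1, 2 and 3. The counts behind these values were 298, 364 and 536 in controls and 152, 346 and 224 in FAP libraries. Control replicate 1 was the highest library and FAP replicate 3 the lowest, and the groups did not overlap. The means were 45.5 ± 7.81 and 21.8 ± 4.47 CPM, so the FAP level was 47.8% of the control level. The log2 fold change was -1.07 (SE 0.16), with a 95% interval from -1.39 to -0.74. As NUBP1 was chosen for its lower level here, this interval only describes the fit. Without FAP replicate 3 the log2 fold change was -0.89, and without control replicate 1 it was -0.93.

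By the rule applied to all genes, an adjusted p under 0.05 in edgeR's quasi-likelihood test, 1 of the 9 members was called, and this was NUBP1. Over all 13373 genes tested, 0.224% were called in either direction and 0.127% were called lower. Because NUBP1 was taken from those calls, nothing is read from its count. The call was lost without control replicate 1 and without control replicate 3, with log2 fold changes of -0.93 and -1.11. Of the other 8 members, edgeR, DESeq2 and limma-voom each called 0, and 0 had an unadjusted p under 0.05 in any of the 3. Over all genes tested, 9.91% had an unadjusted p under 0.05 in edgeR, 8.29% in DESeq2 and 10.2% in limma-voom, so a count of 0 among 8 genes says little about them.

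**Figure D1:**
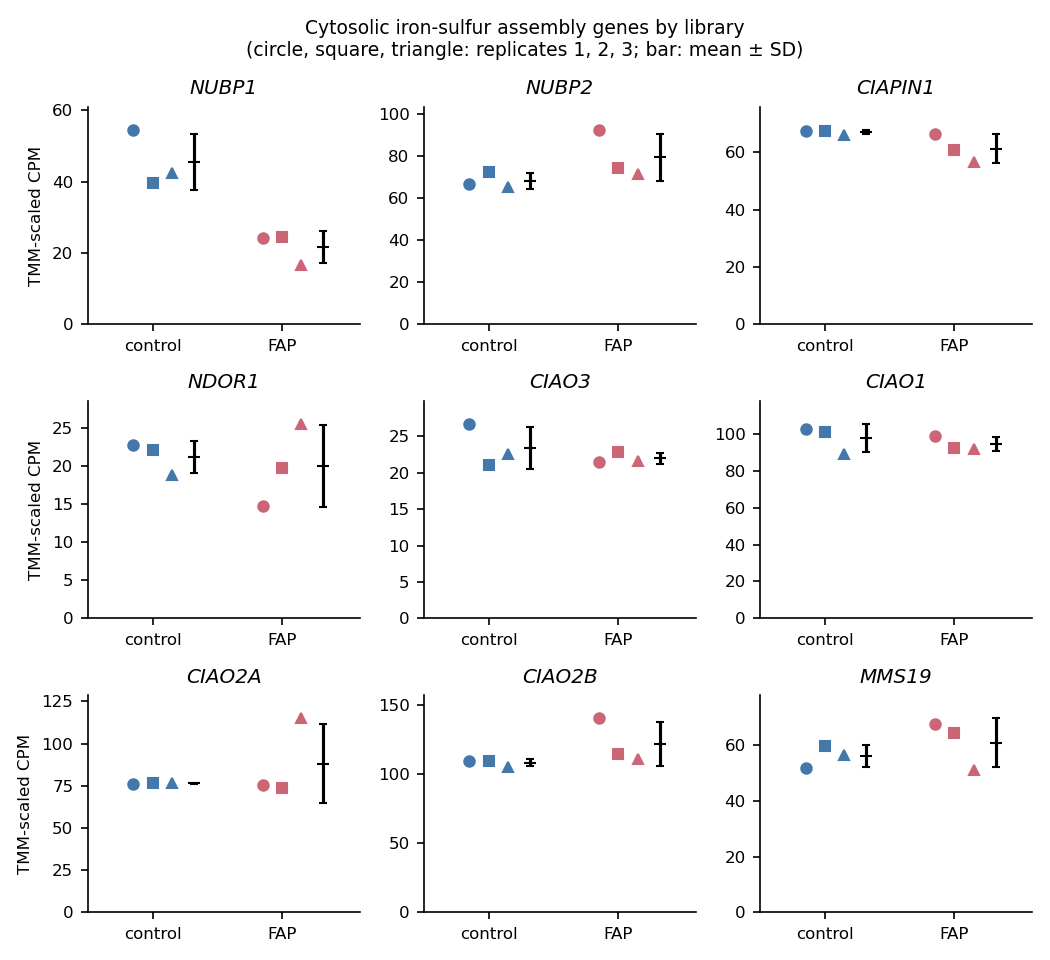
Level of each of the 9 genes in every library, in TMM-scaled CPM on axes from 0, with controls in blue, FAP libraries in red and mean ± SD (n = 3) in black. NUBP1 lies between 39.8 and 54.4 CPM in controls and between 16.6 and 24.4 CPM in FAP libraries, while the ranges of the other genes overlap or, in CIAO2B, lie close together.

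NUBP2, the partner of NUBP1 in the scaffold, was not lower. NUBP2 (Entrez 10101; chromosome 16, 1782960 to 1789186) was at 66.9, 72.2 and 65.3 CPM in controls and at 92.2, 74.2 and 71.5 CPM in FAP libraries. FAP replicate 1 was the highest, and FAP replicate 3 lay just under control replicate 2. Its log2 fold change was 0.21 (SE 0.11), with a 95% interval from -0.02 to 0.45. Without FAP replicate 1 it was 0.10.

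The ratio of NUBP1 to NUBP2 counts within a library does not depend on scaling between libraries. NUBP1 had 81.4, 55.1 and 65.0 counts per 100 NUBP2 counts in the controls and 26.3, 32.9 and 23.2 in the FAP libraries. The highest FAP library was thus below the lowest control, with means of 67.2 ± 13.3 and 27.5 ± 4.94. Because NUBP1 was chosen by its lower level in these same libraries, the ratio describes that difference and is no independent support. Per 100 counts of the other 8 members together, NUBP1 had 10.4, 7.51 and 8.48 counts in controls and 4.21, 4.68 and 3.06 in FAP libraries. The summed level of those 8 averaged 518 ± 15.5 CPM with the control vector and 547 ± 27.3 with the FAP vector, with ranges of 500.04 to 529 and 522 to 576 CPM that overlap.

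**Figure D2:**
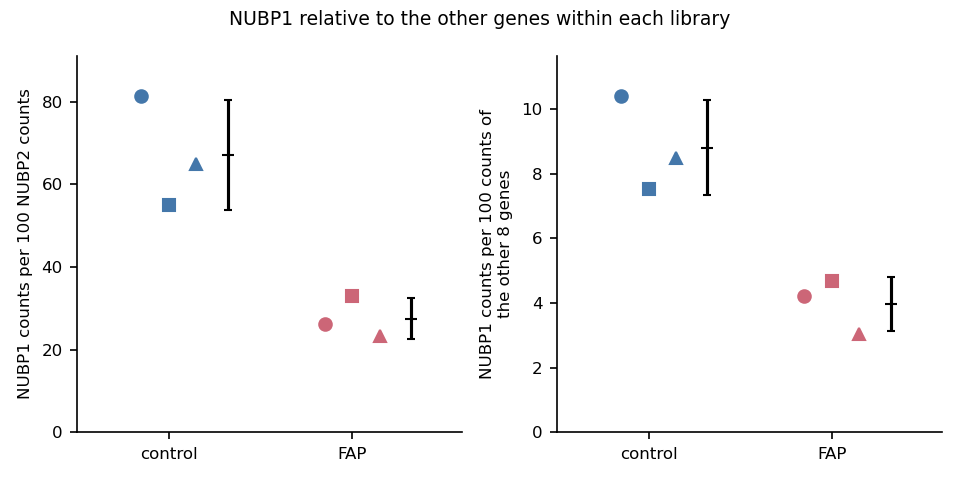
NUBP1 counts per 100 NUBP2 counts (left) and per 100 counts of the other 8 genes (right) in each library, on axes from 0, with mean ± SD (n = 3) in black. The FAP libraries lie between 23.2 and 32.9 on the left and between 3.06 and 4.68 on the right, below all controls in both. NUBP1 was chosen by its level in these libraries, so the ratios are no test of the difference.

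The electron transfer pair overlapped between vectors. CIAPIN1, which carries electrons to the scaffold (Entrez 57019; chromosome 16, 57428187 to 57447385), was at 67.4, 67.3 and 66.2 CPM in controls and at 66.4, 60.8 and 56.5 CPM in FAP libraries. FAP replicate 1 lay among the tightly grouped controls and the other 2 FAP libraries lay under them. Its log2 fold change was -0.13 (SE 0.10, 95% interval -0.35 to 0.08). NDOR1, the diflavin reductase that supplies the electrons (Entrez 27158; chromosome 9, 137205700 to 137219361), was at 22.6, 22.1 and 18.8 CPM in controls and at 14.7, 19.7 and 25.4 CPM in FAP libraries. FAP replicate 1 was below all controls and FAP replicate 3 above them. The log2 fold change was -0.05 (SE 0.17, 95% interval -0.41 to 0.31), and leaving out FAP replicate 3 or FAP replicate 1 turned it to -0.26 or 0.10. NDOR1 had the widest interval of the 8 members other than NUBP1, and a change of up to 0.41 downward lies within it.

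CIAO3, the adaptor between scaffold and targeting complex (Entrez 64428; chromosome 16, 729765 to 740997), was at 26.7, 21.1 and 22.6 CPM in controls and at 21.5, 22.8 and 21.6 CPM in FAP libraries. All FAP libraries lay inside the control range. For CIAO3 the log2 fold change was -0.08 (SE 0.14, 95% interval -0.37 to 0.21), and it ranged from -0.15 (control replicate 2 left out) to 0.01 (control replicate 1 left out).

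In the targeting complex, CIAO1 and MMS19 overlapped between vectors and CIAO2B was separated by a small margin. CIAO1, the WD40 protein at the centre of the complex (Entrez 9391; chromosome 2, 96266225 to 96274173), was at 103, 101 and 89.0 CPM in controls and at 98.6, 92.5 and 91.7 CPM in FAP libraries, all inside the control range. The log2 fold change was -0.05 (SE 0.10, 95% interval -0.26 to 0.16), and it ranged from -0.11 (control replicate 3 left out) to -0.01 (control replicate 1 or 2 left out). MMS19, the subunit that binds many recipient proteins (Entrez 64210; chromosome 10, 97458324 to 97498794), was at 51.7, 59.7 and 56.4 CPM in controls and at 67.3, 64.2 and 50.8 CPM in FAP libraries. FAP replicates 1 and 2 were above all controls and FAP replicate 3 was below them. MMS19 had a log2 fold change of 0.11 (SE 0.12, 95% interval -0.14 to 0.36). Leaving out 1 library at a time moved it between 0.04 (FAP replicate 1) and 0.23 (FAP replicate 3).

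CIAO2B, the subunit that joins CIAO1 to MMS19 (Entrez 51647; chromosome 16, 66932065 to 66934402), was at 109.4, 109.4 and 105 CPM in controls and at 140, 114 and 111 CPM in FAP libraries. All FAP libraries were above all controls, by a little in replicates 2 and 3. CIAO2B had a log2 fold change of 0.17 (SE 0.11, 95% interval -0.05 to 0.39), which was 0.06 without FAP replicate 1. With NUBP1, 2 of the 9 members had groups that did not overlap, 1 in each direction, against 16% of all genes tested.

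CIAO2A, the paralogue of CIAO2B that serves the iron regulatory proteins (Entrez 84191; chromosome 15, 64072565 to 64093838), was at 76.0, 76.5 and 76.9 CPM in controls and at 75.3, 73.7 and 115 CPM in FAP libraries. The value in FAP replicate 3 stood far above the other 5 libraries, which lay within 73.7 to 76.9 CPM. The log2 fold change of 0.21 (SE 0.14) became -0.04 without that library. Counts of CIAO2B per 100 of CIAO2A were 144, 143 and 137 in controls and 186, 155 and 96.1 in FAP libraries, with FAP replicates 1 and 2 above and FAP replicate 3 below the controls.

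**Figure D3:**
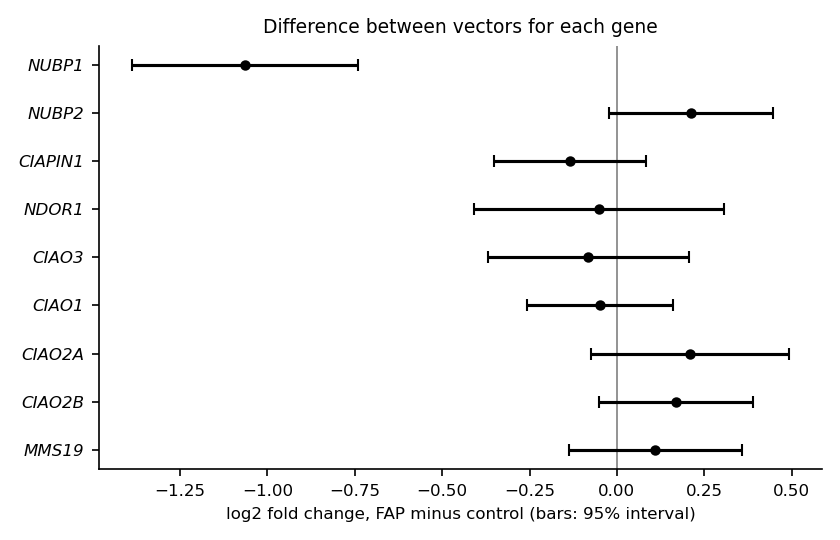
Log2 fold change, FAP minus control, of the 9 genes with 95% intervals from the edgeR fit, ordered by role in the pathway. The NUBP1 interval lies between -1.39 and -0.74, and those of the other 8 genes all include 0. NUBP1 was chosen by this same comparison, so its interval is no test of the difference.

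Over the 8 members other than NUBP1, log2 fold changes ran from -0.13 to 0.21, with 4 positive, 4 negative and a median of 0.03. All 8 were within 0.25 of 0, as were 71.7% of all genes tested, whose median was 0.00. The coefficient of variation within controls ran from 0.569% in CIAO2A to 17.2% in NUBP1, and within FAP libraries from 3.26% in CIAO3 to 27.0% in NDOR1. NUBP1 thus had the widest relative spread of the 9 among controls, and 20.5% among FAP libraries.

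NUBP1 shares its locus with another gene. TVP23A, a Golgi membrane protein gene on the opposite strand (chromosome 16, 10757318 to 10818794), was the only measured gene that overlapped any of the 9 members in the RefSeq table. In the comprehensive GENCODE 29 annotation of GRCh38, 706 of the 1955 exon bases of NUBP1 also lie in TVP23A exons, among them all 305 bases of the last NUBP1 exon (10769047 to 10769351). In the basic GENCODE 29 set, examined after the data had been seen, 250 of 1228 exon bases and 55 of the 305 were shared. Reads of the 2 genes cannot be told apart there without strand, and whether strand was used in counting is not stated in the sources. The deposited counts are per Entrez gene, so the exons used in counting may differ from both GENCODE sets. TVP23A held 5 to 14 counts a library, and its total was 2.71% of the NUBP1 total. Its log2 fold change was -0.08 (SE 0.57). Counts per gene do not show where in NUBP1 the reads fell. Neither the share of exon bases nor the TVP23A total therefore gives the share of reads affected. The part of this overlap in the NUBP1 counts was not tested.

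Within 500 kb of NUBP1, 6 other genes were tested and edgeR called 0, with 1 at an unadjusted p under 0.05. DESeq2 and limma-voom also called 0. Over all genes tested, edgeR called 0.224% and 9.91% had an unadjusted p under 0.05, so these counts say little about 6 genes. EMP2, a tetraspan membrane protein gene, averaged 72.0 ± 6.92 CPM with the control vector and 82.7 ± 10.8 with the FAP vector, a log2 fold change of 0.19 (adjusted p = 0.6158). DEXI was at 23.6 ± 0.447 and 24.0 ± 3.00 CPM (0.02, adjusted p = 0.981). SOCS1, a feedback inhibitor of cytokine signalling, was at 10.3 ± 1.14 and 7.56 ± 1.02 CPM (-0.44, adjusted p = 0.4802), with all FAP libraries below the controls. Groups that did not overlap, in either direction, were seen in 16% of all genes tested. CLEC16A and ATF7IP2 had 0.15 and -0.31 (adjusted p = 0.8582 and 0.8609), with group means under 10 CPM.

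The wider set of iron-sulfur and iron genes held 69 genes in 4 lists, of which 67 were tested. Of these 1 was called higher and 0 lower, against the 0.224% of all genes called. The median log2 fold change was -0.06, and 56 of the 67 were within 0.25 of 0.

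The mitochondrial assembly genes had no called member. Of 19 tested, 9 had positive and 10 negative values, with a median of -0.05, and 2 had an unadjusted p under 0.05 in edgeR, near the 9.91% of all genes. DESeq2 and limma-voom called 0 as well. ISCA1, a late-acting factor for clusters with 4 irons, was at 41.3, 37.7 and 40.4 CPM in controls and at 31.1, 35.5 and 31.7 CPM in FAP libraries. Its groups did not overlap, with a log2 fold change of -0.27 (SE 0.12, adjusted p = 0.4451). BOLA3, which also acts late, had -0.29 (SE 0.13, adjusted p = 0.4562), and passed in the fit without FAP replicate 3. NFS1, the cysteine desulfurase that supplies sulfur, had the highest value at 0.29 (SE 0.15, adjusted p = 0.5269). The lowest was BOLA1 at -0.48 (SE 0.26, adjusted p = 0.5634), with 21 to 83 counts. NUBPL, the mitochondrial relative of NUBP1 that serves respiratory complex I, averaged 27.8 ± 3.34 CPM with the control vector and 28.0 ± 3.73 with the FAP vector (0.01, SE 0.14), and was named after its value had been seen.

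The cytosolic carriers and adaptors were likewise without a called member. Of 7 tested, 1 was positive and 6 negative, with a median of -0.06. None had an unadjusted p under 0.05 in edgeR, and DESeq2 and limma-voom called 0. The range ran from -0.17 in BOLA2B (SE 0.11, adjusted p = 0.6325) to 0.05 in CISD2, an iron-sulfur cluster protein (SE 0.14, adjusted p = 0.9365). BOLA2, the partner of the glutaredoxin GLRX3, was at -0.12 (adjusted p = 0.7355). BOLA2 and BOLA2B are near-identical copies with similar counts (1658 and 1562 in control replicate 1), so their values are uncertain and may be 1 observation.

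The genes listed for cytosolic and nuclear iron-sulfur proteins had RNA differences spread evenly around 0, and cluster content of the proteins was not measured. Of 26 tested, 13 were positive and 13 negative, with a median of 0.00. edgeR, DESeq2 and limma-voom called 0, and 2 had an unadjusted p under 0.05 in each, with 9.91% of all genes so in edgeR. RSAD2, the antiviral radical SAM enzyme viperin, was at 34.7, 51.6 and 42.9 CPM in controls and at 31.6, 31.3 and 28.6 CPM in FAP libraries. All FAP libraries were below the controls, with a log2 fold change of -0.51 (SE 0.14, adjusted p = 0.1618), and RSAD2 passed when no low-count filter was used. XDH, xanthine dehydrogenase, had the lowest value at -1.23 (SE 0.46, adjusted p = 0.3643) on only 3 to 35 counts a library. DNA2, a nuclease and helicase of replication, had the highest at 0.32 (SE 0.18, adjusted p = 0.5727). Named after their values had been seen, ABCE1 was at 169 ± 11.8 and 180 ± 1.21 CPM (log2 fold change 0.09, SE 0.10), and ACO1 at 30.3 ± 3.96 and 29.0 ± 0.897 CPM (-0.07, SE 0.13).

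Among genes of iron uptake, storage and sensing, PCBP2 alone was called, and it rose. PCBP2, a poly(C)-binding protein that also delivers iron inside the cell, was at 141, 144 and 149 CPM in controls and at 203, 232 and 181 CPM in FAP libraries. All FAP libraries were above all controls. It rose by 0.51 on the log2 scale (SE 0.10, adjusted p = 0.04301). In the comprehensive annotation 1494 of its 7926 exon bases lie in exons of MAP3K12 on the opposite strand (138 counts in all, against 10978 for PCBP2) and 93 in PCBP2-OT1 (16 counts), so reads there are uncertain. This call was lost in limma-voom (adjusted p = 0.05397), and without control replicate 1, 2 or 3 or FAP replicate 2 (adjusted p = 0.3197, 0.3325, 0.2318 and 0.3427).

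The other 14 tested genes of that list did not pass, and 10 of all 15 had negative values, with a median of -0.07. Of the 15, 3 had an unadjusted p under 0.05 in edgeR (20%), 3 in DESeq2 and 4 in limma-voom (26.7%). The shares over all genes tested were 9.91%, 8.29% and 10.2%. Groups did not overlap in 4 of the 15, with 2 higher and 2 lower (HMOX2 and FTH1), against 16% of all genes tested. HMOX2, the constitutive heme oxygenase, was at 113 ± 2.34 and 96.8 ± 7.47 CPM (log2 fold change -0.23, SE 0.10, adjusted p = 0.4499), and was named after its value had been seen. HMOX1, the inducible heme oxygenase, had the lowest value at -0.41 (SE 0.32, adjusted p = 0.7062). Named after their values had been seen, the ferritin heavy chain gene FTH1 was at 2201 ± 84.7 and 1878 ± 140 CPM (-0.23, SE 0.11, adjusted p = 0.4822), and the transferrin receptor gene TFRC at 221 ± 13.5 and 204 ± 50.6 CPM (-0.11, SE 0.13). TFRC was 263 CPM in FAP replicate 3 and 177 and 173 CPM in FAP replicates 1 and 2.

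**Figure D4:**
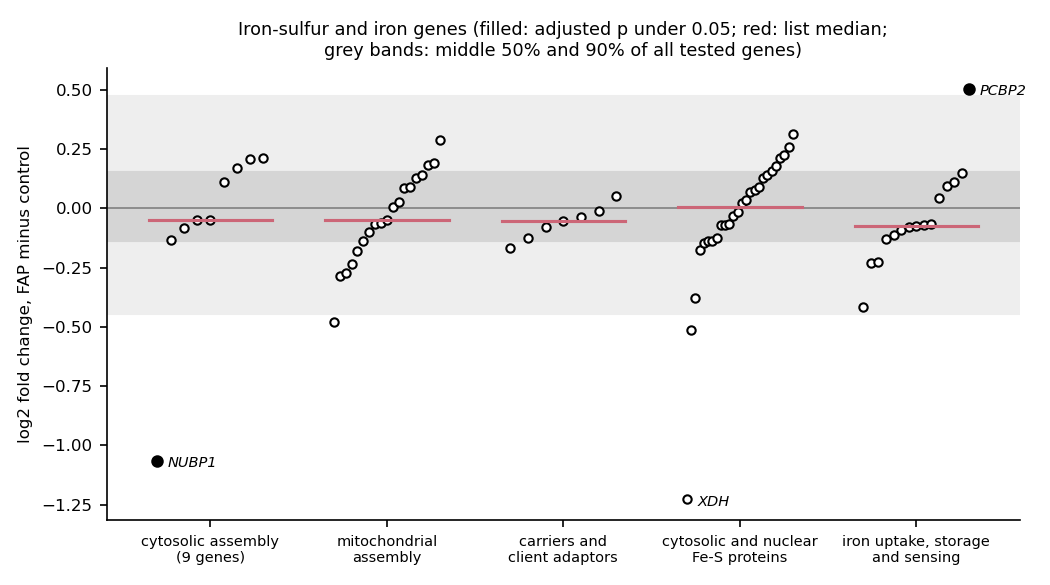
Log2 fold change, FAP minus control, of the 9 assembly genes and of the tested genes of the 4 related lists, with list medians in red and grey bands for the middle 50% and 90% of all tested genes. Filled points are the 2 genes with an adjusted p under 0.05, NUBP1 at -1.07 and PCBP2 at 0.51, and XDH at -1.23 is an open point with few counts.

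The genes whose library profile was nearest to that of NUBP1 lay outside the pathway. Likeness was measured as the root mean square difference, over the 6 libraries, of log2 CPM less the control mean, among 8637 genes that averaged 10 CPM or more. CCNE2, which encodes cyclin E2, was nearest at 0.08. It was at 95.5, 80.4 and 82.0 CPM in controls and at 44.5, 47.1 and 34.3 CPM in FAP libraries, so that, as for NUBP1, control replicate 1 was the highest library and FAP replicate 3 the lowest. The next were APCDD1L-DT, a noncoding RNA gene, at 0.22, STC2, stanniocalcin 2, at 0.27, KLF2, a zinc finger transcription factor, at 0.29, and TNFAIP3, a feedback inhibitor of NF-kB, at 0.30. The median over the genes compared was 0.80, and the other 8 members lay between 0.69 (CIAPIN1) and 0.98 (CIAO2A). This measure is dominated by the difference between vectors, so it mostly picks genes with a similar fold change. The other 8 members, with log2 fold changes within 0.25 of 0, could therefore hardly be near NUBP1. Their distances say nothing more about the pathway.

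**Figure D5:**
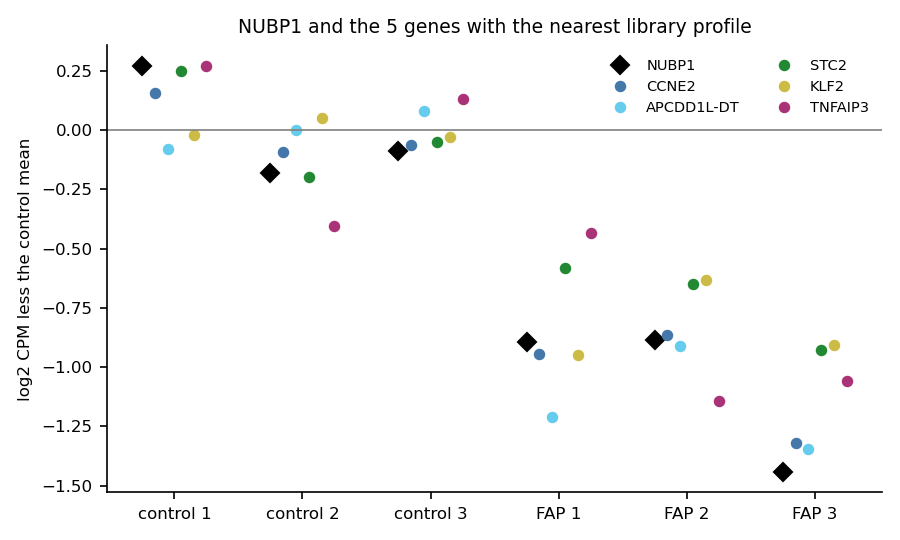
Log2 CPM less the control mean in each of the 6 libraries for NUBP1 (black diamonds) and the 5 genes with the nearest profile (coloured circles). NUBP1 and CCNE2 differ by a root mean square of 0.08 and both are highest in control replicate 1 and lowest in FAP replicate 3.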

How the data were processed

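The authors deposited whole-number read counts per Entrez gene for 6 libraries, not normalized, per the file headers and values. HISAT2, featureCounts, Subread and GRCh38 are named in the submitters' processing notes, with versions, strand setting and use of molecular identifiers not given in the sources used here. If none were used, PCR duplicates were counted more than once. Of 28395 IDs, 27745 matched a symbol in RefSeq's GRCh38.p14 table. Groups came from the labels.

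Tests used edgeR 4.0.16 (R 4.3.3; TMM, filterByExpr with minimum count 10 and total 15, quasi-likelihood F test, Benjamini-Hochberg adjustment over 13373 genes, no covariate). Standard errors are the log2 fold change over the square root of F. Alternatives were DESeq2 1.42.0, limma-voom (limma 3.58.1), other scaling, filters and depth, a replicate block and each library left out. The scripts were tested on simulated data. Members and lists were chosen with earlier results of these data known. Named were all members, called genes of each list or the 2 with the smallest p, the highest and lowest value, tested genes within 500 kb of NUBP1, overlapping genes and the 5 nearest profiles.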

Additional observations from a re-analysis of the deposited data

How the results depend on the processing

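NUBP1 kept its direction in all 15 alternatives, with log2 fold changes from -1.18 to -0.89, and was called in all but 2. All 15 reuse the libraries by which NUBP1 was chosen, so its kept direction and calls are no independent support. Leaving out 1 library at a time gave between 0 and 1 called member, 0 to 2 called related genes and 3 (control replicate 3 omitted) to 248 (FAP replicate 3 omitted) called genes among all tested. Compared with 30 genes called (13 higher, 17 lower), library totals gave 19 (13 higher, 6 lower), DESeq2 82, no low-count filter 152 and thinning to the smallest library 16. Related genes called were 0 in limma-voom and 2 with no low-count filter, compared with 1. The cause of these shifts was not tested. No alternative called another member. All 120 values of the other 8 members moved by less than 1 SD between replicates, and 5 changed sign (CIAO1, CIAO2A and CIAO3 once each, NDOR1 in 2). That SD came from the same libraries, so leaving 1 library out could hardly move a value further. The count is therefore no measure of stability. With the replicate number as a block 44 genes were called and NUBP1 was at -1.07. No pairing by number was seen: deviations of same-numbered libraries correlated at -0.000376, 0.0149 and -0.00664, and not every library correlated best with its own number. With 3 libraries a group, this cannot tell whether same-numbered libraries were handled together. Thinning to the smallest library moved CIAO3 from -0.08 to -0.18, CIAO2B from 0.17 to 0.24 and MMS19 from 0.11 to 0.04.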
